A study of Mus musculus with 18 samples.

Results

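The BCL2 family decides, at the outer membrane of mitochondria, whether a cell starts the intrinsic programme of apoptosis. Transcript and ribosome footprint levels of 10 of its genes, listed by symbol, were examined in the cerebellum: the BH3-only genes Bbc3, Pmaip1, Bcl2l11, Hrk and Bid, the effector genes Bax and Bak1, and the pro-survival genes Bcl2, Bcl2l1 and Mcl1. All 10 were found among the 54752 genes of the RNA tables and among the 22523 genes of the footprint tables. The samples were cerebella of 3-week-old mice of 3 genotypes: B6J (labelled wildtype), B6J.Gtpbp1-/- and B6J-Gtpbp2-/-. Each genotype had 3 libraries of poly(A)-selected RNA and 3 libraries of ribosome footprints, the stretches of mRNA that ribosomes shield from nuclease, which makes 18 libraries. All of the mice, controls included, were on the C57BL/6J strain and therefore carried its hypomorphic mutation in the tRNA gene n-Tr20, which lowers the supply of the tRNA that reads the arginine codon AGA. GTPBP1 and GTPBP2 are related GTPases that act in translation. The Gtpbp1 allele is a targeted one, in which a neomycin resistance cassette takes the place of coding exons, and Gtpbp2 carried nmf205, a chemically induced point mutation that acts as a null allele. Both mutants were compared with the same 3 B6J libraries of each assay, so the 2 comparisons are not independent of each other. RNA libraries are labelled as batch 1 and footprint libraries as batch 2, and assay and batch cannot be told apart.

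BH3-only proteins carry a short helix, the BH3 domain, which binds a groove on the surface of pro-survival proteins and neutralises them, and some of them also activate the effectors directly. Once they are free, BAX and BAK form pores in the outer mitochondrial membrane, cytochrome c is released and caspases are activated. In neurons, transcription of Bbc3 (which encodes PUMA), Pmaip1 (NOXA), Hrk (harakiri) and Bcl2l11 (BIM) is known to be induced by stress, by p53 or by loss of trophic support, whereas BID is activated mainly by cleavage.

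A feature that the members of the family share is visible in the coding sequence and is shown here. In Gencode M21 on GRCm38, a leucine codon followed, after 3 codons of any kind, by a glycine or alanine codon and an aspartate codon was found once in the main transcript of 9 genes and at 2 positions in that of Pmaip1. The 10 codons around the match are given 5′ to 3′, with the codons of leucine, of glycine or alanine, and of aspartate in capitals.
Bbc3: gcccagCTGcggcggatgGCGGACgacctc
Bcl2l11: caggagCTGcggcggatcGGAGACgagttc
Hrk: ctgcggCTGcaggcgctgGGCGACgagctg
Bid: agacatCTCgcccaaataGGCGATgagatg
Bax: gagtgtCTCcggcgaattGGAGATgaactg
Bak1: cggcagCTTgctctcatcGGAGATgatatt
Bcl2: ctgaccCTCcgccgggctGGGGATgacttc
Bcl2l1: caagcgCTGagagaggcaGGCGATgagttt
Mcl1: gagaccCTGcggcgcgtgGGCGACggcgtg
These stretches are codons 139 to 148 of Bbc3-201 (gene at chr7:16308393-16318205, plus strand), 148 to 157 of Bcl2l11-205 (chr2:128126038-128162547, plus) and 35 to 44 of Hrk-201 (chr5:118164648-118189478, plus). They are codons 88 to 97 of Bid-201 (chr6:120891930-120916853, minus), 61 to 70 of Bax-201 (chr7:45461697-45466898, minus) and 74 to 83 of Bak1-202 (chr17:27019810-27029009, minus). In the pro-survival genes they are codons 92 to 101 of Bcl2-201 (chr1:106538178-106714274, minus), 88 to 97 of Bcl2l1-201 (chr2:152780668-152831728, minus) and 192 to 201 of Mcl1-201 (chr3:95658788-95663176, plus). Bbc3 had alanine in place of the glycine that the other 8 printed stretches had.

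The libraries held between 37794333 and 52114145 estimated counts for RNA and between 3630823 and 10442573 counts for footprints. In RNA, Gtpbp1 was at 41.7 to 44.2 CPM (counts scaled to library size) in B6J.Gtpbp1-/- mice and at 66.5 to 77.6 CPM in B6J mice. Gtpbp2, whose allele need not lower its transcript, was at 65.6 to 75.5 CPM in B6J-Gtpbp2-/- mice and at 73.8 to 87.8 CPM in B6J mice. Transcripts of Ddx3y, a Y-linked gene, marked 1 of 3 B6J, 2 of 3 B6J.Gtpbp1-/- and 0 of 3 B6J-Gtpbp2-/- RNA libraries as male. In footprints this was 2 of 3, 1 of 3 and 0 of 3, and for 2 numbers the RNA and footprint libraries differed in sex, so the assays were not paired by mouse. Markers of several cell types differed between the genotypes. In RNA, the 7 granule neuron markers summed to 4488 to 4754 CPM in B6J, 2797 to 3171 CPM in Gtpbp1 mutants and 2815 to 3193 CPM in Gtpbp2 mutants, and all 7 were significantly lower in both mutants. The 8 microglial markers summed to 95.2 to 99.2, 179.7 to 215.5 and 181.8 to 192.0 CPM, and 6 and 5 of them were significantly higher in B6J.Gtpbp1-/- and B6J-Gtpbp2-/- mice. Oligodendrocyte markers were significantly lower for 5 and 0 of 5, interneuron markers for 2 and 4 of 5 and Purkinje cell markers for 1 and 3 of 5, and endothelial markers were higher for 2 of 3 in both. The 3 choroid plexus markers summed to between 53.4 and 1733 CPM in single RNA libraries, with overlap between the genotypes. In footprints, the granule neuron sum averaged 3324 CPM in B6J, 2048 CPM in B6J.Gtpbp1-/- and 1414 CPM in B6J-Gtpbp2-/- mice, and the microglial sum 206.3, 488.1 and 352.9 CPM. Interneuron footprints, unlike their RNA, had a higher sum in B6J-Gtpbp2-/- (3907 to 4353 CPM) than in B6J mice (1910 to 3617 CPM), with 0 of 5 markers called. Bone and muscle markers summed to 1359 to 2676 CPM of footprints in B6J.Gtpbp1-/- against 274.1 to 886.7 CPM in B6J mice, and choroid plexus markers to between 51.3 and 13569 CPM in single footprint libraries. From whole-tissue values alone, fewer cells of a type and less RNA per cell cannot be told apart. The study saw apoptotic granule cells in B6J.Gtpbp1-/- mice shortly before 4 weeks of age, later than the 3 weeks sampled here. It described similar degeneration in B6J-Gtpbp2-/- mice. The part that these marker shifts play in the values of the BCL2 family was not tested.

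Levels of different genes were compared as TPM, a transcript abundance scaled to length and library size. In B6J cerebellum the most abundant were 2 pro-survival genes and 1 effector gene, with Bcl2l1, which encodes BCL-XL, at 106.3 ± 5.31 TPM, Mcl1 at 73.6 ± 1.52 TPM and Bax at 64.2 ± 3.73 TPM (SD, n = 3 for each level here). The ranges of these 3 genes did not overlap. Bak1 (11.3 ± 0.855 TPM) and Bbc3 (9.76 ± 2.2 TPM) followed, and their ranges overlapped. Bcl2l11 (6.27 ± 0.630 TPM) and Bcl2 (6.05 ± 0.479 TPM) overlapped each other, as did Hrk (3.21 ± 0.512 TPM) and Bid (3.15 ± 0.193 TPM). Pmaip1 was lowest, at 0.846 ± 0.0878 TPM. Bbc3 moved above Bak1 in both mutants, to 34.3 ± 7.25 TPM in B6J.Gtpbp1-/- and 30.1 ± 6.48 TPM in B6J-Gtpbp2-/- mice, without overlap with Bak1. Hrk moved above Bcl2 and Bcl2l11, to 13.1 ± 1.34 and 11.3 ± 1.78 TPM, where its range overlapped that of Bak1. Bcl2l1 remained the most abundant of the 10 genes in each genotype.

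To determine which members of the family changed with loss of either GTPase, RNA was compared between each mutant and B6J with edgeR's quasi-likelihood test over all genes, at an adjusted p (Benjamini-Hochberg) of at most 0.05. Of the 5 BH3-only genes, 3 (Bbc3, Pmaip1 and Hrk) were significantly higher in both mutants, and neither effector passed the test. With Gtpbp1 lost, 4 of the 10 genes were called, against 13.8% of the 24577 genes tested: 3 were higher, against 5.9%, and Bcl2l1 alone (1 gene) was lower, against 7.93%. With Gtpbp2 lost, 3 of the 10 were called, against 8.63% of 24859 genes: all 3 were higher, against 3.61%, and 0 were lower, against 5.02%. At an unadjusted p under 0.05 there were 6 and 5 members, against 26.3% and 22.5% of all genes. The median log2 fold change of the 10 genes was 0.22 in both comparisons, beside 0.03 for all genes tested. When only non-overlap of the 3 libraries of each group was counted, 4 members stood above and 3 below B6J when Gtpbp1 was lost, against 16.4% and 15.5% of all genes. In B6J-Gtpbp2-/- mice these counts were 3 and 1, against 14.9% and 13.6%.

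**Figure D1:**
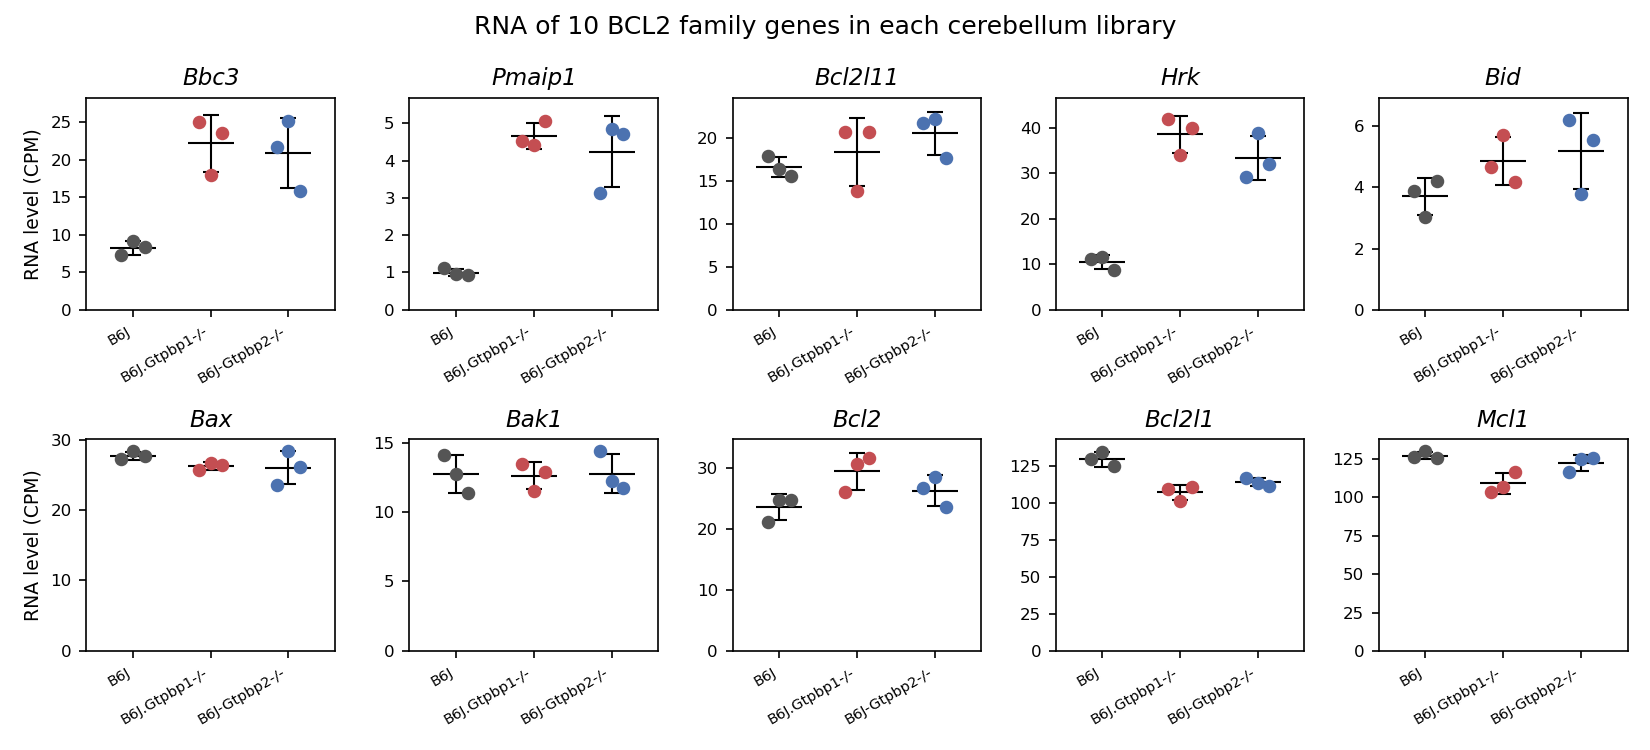
RNA level (CPM, y axis from 0) of each of the 10 genes in the 3 libraries of each genotype (points), with the mean and SD (bars); the upper row holds the BH3-only genes and the lower row the effectors and pro-survival genes. For Bbc3, Pmaip1 and Hrk every mutant library lies above every B6J library, and for Bcl2l1 every mutant library lies below every B6J library.

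Bbc3 encodes PUMA, a BH3-only protein that binds all of the main pro-survival proteins and is a classical p53 target. Its RNA was at 7.24, 9.09 and 8.32 CPM in the 3 B6J libraries, at 25.05, 17.9 and 23.5 CPM in B6J.Gtpbp1-/- and at 21.7, 25.2 and 15.8 CPM in B6J-Gtpbp2-/- libraries. The lowest mutant library was thus above the highest B6J library in both comparisons. The log2 fold change was 1.42 ± 0.15 (SE; adjusted p = 3.59e-05), or 2.68-fold, in B6J.Gtpbp1-/- and 1.34 ± 0.18 (adjusted p = 0.00103), or 2.53-fold, in B6J-Gtpbp2-/- mice.

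Pmaip1 encodes NOXA, which binds MCL1 with preference. It was the least expressed of the 10 genes in B6J and had the largest RNA fold change among them in both mutants. The B6J libraries held 52, 44 and 47 estimated counts (1.10, 0.947 and 0.931 CPM). Those of B6J.Gtpbp1-/- mice held 206, 227 and 194 (4.52, 4.41 and 5.06 CPM), and those of B6J-Gtpbp2-/- mice 147, 253 and 252 (3.14, 4.85 and 4.73 CPM). The groups did not overlap. The log2 fold change was 2.22 ± 0.24 (SE; adjusted p = 5.47e-05), or 4.66-fold, and 2.08 ± 0.27 (adjusted p = 9.29e-04), or 4.24-fold.

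Hrk encodes harakiri, a BH3-only protein found mainly in the nervous system that binds BCL2 and BCL-XL. Its RNA rose from 11.2, 11.5 and 8.64 CPM in B6J to 41.8, 33.9 and 39.8 CPM in B6J.Gtpbp1-/- and to 29.3, 38.7 and 31.9 CPM in B6J-Gtpbp2-/- libraries. Every mutant library was far above the highest B6J library, with no overlap. The log2 fold change was 1.88 ± 0.13 (SE; adjusted p = 1.16e-06), or 3.67-fold, and 1.67 ± 0.15 (adjusted p = 8.98e-05), or 3.18-fold. By p-value Hrk ranked 48th of 24577 and 44th of 24859 genes, ahead of Bbc3 (210th and 222nd) and Pmaip1 (255th and 212th). The calls of Bbc3, Pmaip1 and Hrk were kept in each of 14 other settings tried for each mutant, which included leaving out every library in turn.

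The other BH3-only genes did not pass the test. Bcl2l11 encodes BIM, which binds all pro-survival proteins and can activate BAX. It was at 18.0, 16.5 and 15.6 CPM in B6J, 20.7, 13.8 and 20.7 CPM in B6J.Gtpbp1-/- and 21.8, 22.2 and 17.7 CPM in B6J-Gtpbp2-/- libraries, and both mutants overlapped B6J. Its log2 fold changes were 0.13 (95% CI −0.19 to 0.46; adjusted p = 0.657) and 0.29 (0.01 to 0.57; adjusted p = 0.197). Bid encodes a BH3-only protein that links death receptors to mitochondria once caspase 8 has cut it. It was at 3.89, 3.04 and 4.20 CPM in B6J, 4.68, 5.73 and 4.17 CPM in B6J.Gtpbp1-/- and 6.20, 3.80 and 5.55 CPM in B6J-Gtpbp2-/- libraries, again with overlap. Its log2 fold changes were 0.38 (95% CI −0.09 to 0.86; adjusted p = 0.307) and 0.47 (−0.05 to 1.00; adjusted p = 0.277). When counts were taken over protein-coding transcripts alone, Bid passed in both mutants, with 1.26 (adjusted p = 0.0192) and 1.34 (adjusted p = 0.0343).

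The estimated levels of single Bid transcripts differed between libraries of the same genotype. Bid-204, which the annotation labels as a target of nonsense-mediated decay, held 1.80, 0 and 2.04 TPM in the B6J libraries and was listed at 0 in all 6 mutant libraries. Bid-201, the main coding transcript, held 1.34, 2.61 and 1.31 TPM in B6J, 4.22, 5.59 and 4.04 TPM in B6J.Gtpbp1-/- and 5.71, 3.47 and 5.35 TPM in B6J-Gtpbp2-/- libraries. The coding transcript was thus higher in every mutant library than in every B6J library, but B6J libraries 1 and 3, with Bid-204, were lower than B6J library 2, without it. These transcripts overlap, and how well their reads can be assigned was not tested. Pmaip1 has a single listed transcript, and Hrk-201 held the whole of the Hrk signal in each library. The coding transcript Bbc3-201 was at 5.40 ± 0.650 TPM in B6J and at 15.5 ± 2.46 and 14.8 ± 4.16 TPM, and its share of Bbc3 TPM went from 56.2% ± 6.94 in B6J to 45.6% ± 3.95 for Gtpbp1 loss and 48.8% ± 5.07 for Gtpbp2 loss. Bbc3-204, a shorter coding transcript, was listed at 0 in the B6J libraries and held 5.76% ± 5.19 and 4.90% ± 2.50 of Bbc3 TPM in the mutants. A Bbc3 transcript with a retained intron, Bbc3-203, was at 3.32 ± 0.149 TPM in B6J and at 12.1 ± 1.95 and 10.3 ± 0.686 TPM, and its share of Bbc3 TPM was 35.3% in B6J, 35.8% for Gtpbp1 loss and 35.2% for Gtpbp2 loss (SD, n = 3 for each).

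The effectors Bax and Bak1, whose proteins form the pores, did not pass the test in either mutant. Bax was at 27.2, 28.4 and 27.6 CPM in B6J, 25.7, 26.7 and 26.4 CPM in B6J.Gtpbp1-/- and 23.6, 28.4 and 26.0 CPM in B6J-Gtpbp2-/- libraries. Its log2 fold changes were −0.08 (95% CI −0.28 to 0.11; adjusted p = 0.630) and −0.10 (−0.32 to 0.12; adjusted p = 0.641). In TPM the order of the means was the opposite, with 64.2 ± 3.73 TPM in B6J against 71.3 ± 2.83 and 67.2 ± 7.13 TPM in the mutants, while the count test with effective lengths gave −0.02 and −0.09. Bak1 was at 14.1, 12.7 and 11.4 CPM in B6J, 13.5, 11.5 and 12.9 CPM in B6J.Gtpbp1-/- and 14.4, 12.2 and 11.7 CPM in B6J-Gtpbp2-/- libraries. Its log2 fold changes were −0.02 (95% CI −0.31 to 0.27) and −0.0025 (−0.32 to 0.31), with adjusted p = 0.954 and 0.996, and their sign varied with the scaling. The CPM intervals of both genes leave out a change as large as that of Bbc3, Pmaip1 or Hrk. Non-coding and decay-labelled transcripts held most of the Bak1 TPM in each genotype, with 29.6% of it in the coding transcript Bak1-202 in B6J, 19.3% with Gtpbp1 lost and 25.6% with Gtpbp2 lost.

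Among the pro-survival genes the differences were small. Bcl2l1 was at 129.4, 134.5 and 124.6 CPM in B6J, 109.5, 101.5 and 110.5 CPM in B6J.Gtpbp1-/- and 117.1, 113.4 and 111.7 CPM in B6J-Gtpbp2-/- libraries. Every mutant library was below every B6J library. In B6J.Gtpbp1-/- mice it fell by 0.28 ± 0.07 on the log2 scale (SE; adjusted p = 0.0199), to 0.824 of the B6J level. In B6J-Gtpbp2-/- mice the log2 fold change was −0.19 ± 0.07 (adjusted p = 0.130). The call in B6J.Gtpbp1-/- mice was lost in 5 of 14 settings: with sex as a covariate, with a replicate block, and without B6J replicate 1, B6J replicate 2 or B6J.Gtpbp1-/- replicate 2, with adjusted p between 0.0664 and 0.116. Mcl1, whose protein turns over quickly, was at 126.5, 130.0 and 125.4 CPM in B6J, 103.7, 107.0 and 116.6 CPM in B6J.Gtpbp1-/- and 116.7, 125.2 and 125.8 CPM in B6J-Gtpbp2-/- libraries. Its log2 fold change was −0.23 ± 0.07 (SE; adjusted p = 0.0559) in B6J.Gtpbp1-/- mice, whose libraries lay below those of B6J, and −0.06 ± 0.07 (adjusted p = 0.686) in B6J-Gtpbp2-/- mice, whose libraries overlapped them. Bcl2, the founding member of the family, was at 21.1, 24.8 and 24.7 CPM in B6J, 26.0, 30.7 and 31.6 CPM in B6J.Gtpbp1-/- and 26.6, 28.5 and 23.5 CPM in B6J-Gtpbp2-/- libraries. Its log2 fold changes were 0.32 ± 0.11 (adjusted p = 0.0790) and 0.15 ± 0.11 (adjusted p = 0.513). In B6J.Gtpbp1-/- mice, Mcl1 and Bcl2 lay close to the threshold, and with DESeq2 both passed it (adjusted p = 0.0278 and 0.0497), where DESeq2 called 17.5% of all genes. Mcl1 also passed with all 9 libraries in the fit (adjusted p = 0.0423) and without B6J.Gtpbp1-/- replicate 3 (0.0328). Bcl2 also passed with upper-quartile scaling (adjusted p = 0.0421), with no filter (0.0412) and without B6J.Gtpbp1-/- replicate 1 (0.0435).

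**Figure D2:**
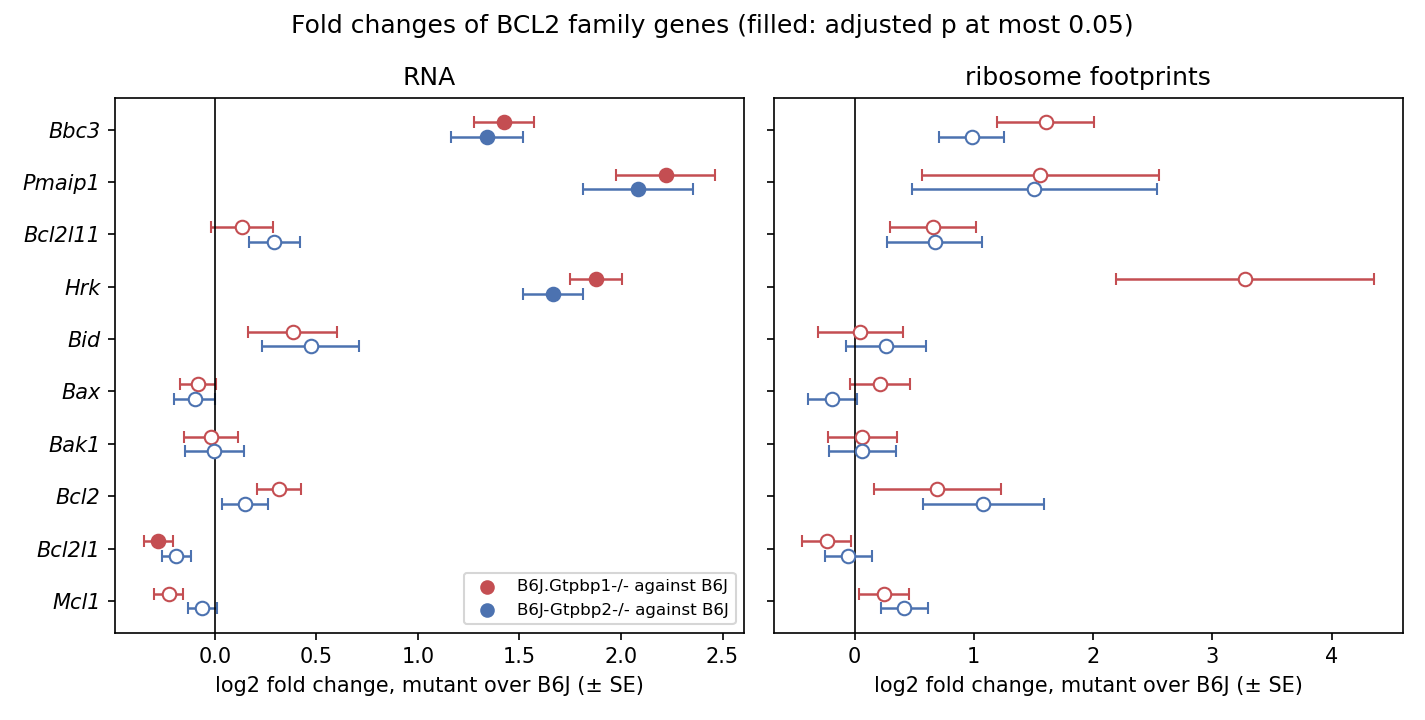
Log2 fold change over B6J (x axis, ± SE) of each gene in B6J.Gtpbp1-/- (red) and B6J-Gtpbp2-/- mice (blue), for RNA (left) and footprints (right); filled points passed an adjusted p of 0.05 and the x axes differ between the panels. In RNA, Bbc3, Pmaip1 and Hrk lie between 1.34 and 2.22 in both mutants and the other genes between −0.28 and 0.47, while no footprint value passed and Hrk has none for B6J-Gtpbp2-/- mice.

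Summed by role, the RNA of the 5 BH3-only genes was 22.6, 25.8 and 21.2 TPM in the B6J libraries, 70.3, 53.4 and 71.8 TPM in B6J.Gtpbp1-/- and 63.1, 67.4 and 51.3 TPM in B6J-Gtpbp2-/- libraries. That of the 3 pro-survival genes was 190.3, 188.9 and 178.8 TPM in B6J, 162.1, 171.0 and 181.6 TPM in B6J.Gtpbp1-/- and 185.6, 184.6 and 183.3 TPM in B6J-Gtpbp2-/- libraries. As a percentage of the pro-survival sum, the BH3-only sum was 12.5% ± 1.04 in controls, 38.0% ± 6.19 after loss of Gtpbp1 and 32.8% ± 4.37 after loss of Gtpbp2 (SD, n = 3). The BH3-only sums of B6J and mutant libraries did not overlap. For footprints per kilobase the same percentage was 21.0% ± 4.48, 48.1% ± 24.8 and 32.7% ± 10.2. One B6J.Gtpbp1-/- footprint library reached 76.3%, and the lowest B6J-Gtpbp2-/- library, at 24.4%, was below the highest B6J library, at 26.2%. The effector sum was 75.5 ± 3.75, 86.8 ± 2.64 and 79.2 ± 7.29 TPM. RNA levels do not give protein levels, and the sums are a description without a test. They leave out other expressed members of the family. BH3-only Bmf was at 26.0 CPM in B6J, 16.9 CPM in B6J.Gtpbp1-/- and 19.5 CPM in B6J-Gtpbp2-/- mice (log2 fold change −0.63 and −0.42; adjusted p = 0.154 and 0.357). Bad and Bcl2l2, given below, were also lower without passing. Bik (0.164 CPM in B6J-Gtpbp2-/- mice) and the pro-survival gene Bcl2a1b (1.03 CPM) had higher means in the mutants.

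**Figure D3:**
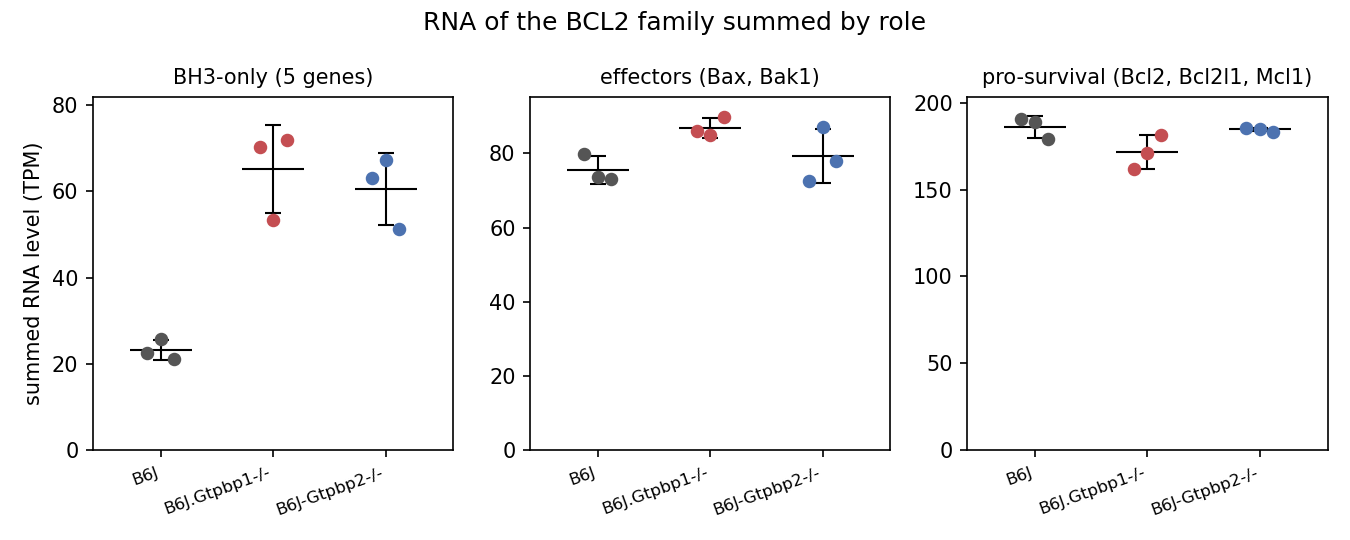
Summed RNA level (TPM, y axis from 0) of the BH3-only, effector and pro-survival genes in each library (points), with the mean and SD of each genotype (bars). The BH3-only sum lies at 21.2 to 25.8 TPM in B6J and at 51.3 to 71.8 TPM in the mutants, whereas the pro-survival sums of the 3 genotypes lie between 162.1 and 190.3 TPM.

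The 2 mutants were also compared with each other directly. None of the 10 genes passed edgeR's test (0 of 10, with 15 of 25190 genes called, or 0.0595%), and DESeq2 also called 0, against 0.179%. At an unadjusted p under 0.05 there was 1, Mcl1, with a log2 difference of −0.17 between B6J.Gtpbp1-/- and B6J-Gtpbp2-/- mice (95% CI −0.33 to −0.0016), against 3.57% of all genes. The difference between the mutants was 0.08 (95% CI −0.32 to 0.49) for Bbc3, 0.14 (−0.31 to 0.58) for Pmaip1 and 0.21 (−0.05 to 0.47) for Hrk. Counting genes whose mutant groups did not overlap gave 0 members higher and 2 lower (Bcl2l1 and Mcl1) in B6J.Gtpbp1-/- mice, against 4.54% and 4.38% of all genes. For Bbc3, Pmaip1 and Hrk the intervals leave out differences between the mutants as large as the change from B6J, and smaller ones remain possible.

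To ask whether these transcripts were also met by more ribosomes, footprints on the coding sequences were compared in the same way. In B6J, Bcl2l1 (90.8 ± 20.4 CPM per kilobase of coding sequence), Mcl1 (75.6 ± 19.0) and Bax (63.9 ± 15.3) again had the highest density, and their ranges overlapped. Hrk had the lowest mean, at 0.930 ± 0.838 CPM per kilobase, and its range overlapped that of Pmaip1 (2.18 ± 3.78; SD, n = 3 each). No member passed edgeR's test in either mutant. In B6J.Gtpbp1-/- mice 0 of 10 were called, against 0.745% of 13956 genes. With Hrk set aside, 1 member (Bbc3) had an unadjusted p under 0.05, against 12.6%. In B6J-Gtpbp2-/- mice 0 of the 9 tested were called, against 2.94% of 13797 genes, and 3 had an unadjusted p under 0.05, against 17.1%. Leaving out Hrk, members whose groups did not overlap and were higher numbered 2 (Bbc3 and Bcl2l11) and 2 (Bbc3 and Bcl2), against 8.89% and 10.3%. Hrk is left out because it met the count minimum, at least 5 counts in 3 libraries, only through its B6J.Gtpbp1-/- libraries, and would otherwise not have been tested. DESeq2 called 1 member, Bbc3, in each comparison, against 2.94% and 4.6% of all genes. Footprint libraries were shallower than RNA libraries, and for 2 of the 3 genes that rose in RNA the counts were very low.

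Bbc3 had 31, 47 and 58 footprints in the B6J libraries, 114, 148 and 285 in B6J.Gtpbp1-/- and 100, 75 and 176 in B6J-Gtpbp2-/- libraries. Scaled to library size, these were 6.96, 10.3 and 9.30 CPM, 16.3, 16.9 and 48.3 CPM, and 15.6, 20.4 and 16.9 CPM. Every mutant library was above every B6J library. The log2 fold change was 1.60 ± 0.41 (SE; adjusted p = 0.10) in B6J.Gtpbp1-/- mice and 0.98 ± 0.27 (adjusted p = 0.0685) in B6J-Gtpbp2-/- mice, and with DESeq2 it was 1.61 (adjusted p = 0.00607) and 0.99 (adjusted p = 0.0357). The third B6J.Gtpbp1-/- library was far above the other 2, and without it the log2 fold change was 0.92 (adjusted p = 0.155).

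Hrk had 2, 0 and 2 footprints in B6J, 6, 8 and 39 in the libraries of B6J.Gtpbp1-/- mice and 3, 5 and 11 in those of B6J-Gtpbp2-/- mice. The count of 0 in B6J library 2 allows up to 3 counts, or 0.658 CPM. Most of the signal in B6J.Gtpbp1-/- mice came from library 3, with 6.61 CPM against 0.858 and 0.914 CPM in libraries 1 and 2. In these mice the fitted log2 difference from B6J was 3.27 (SE 1.1; adjusted p = 0.197, and 0.0747 with DESeq2). Since Hrk was tested only because these libraries are high, the difference is a description. With any 1 of the B6J.Gtpbp1-/- libraries left out it had too few counts to be tested, as was the case in B6J-Gtpbp2-/- mice. Pmaip1 had 9, 0 and 0 footprints in B6J, 13, 15 and 12 in the libraries of B6J.Gtpbp1-/- mice and 13, 7 and 16 in those of B6J-Gtpbp2-/- mice. The counts of 0 allow up to 0.658 and 0.481 CPM in B6J libraries 2 and 3, and the single B6J library with footprints reached 2.02 CPM, within the range of the mutants. Its log2 fold changes were 1.56 ± 1.00 (SE; adjusted p = 0.559) and 1.51 ± 1.03 (adjusted p = 0.499). Leaving out 1 library at a time, they ran from 0.88 to 6.61 and from 0.84 to 6.52. The highest values were without B6J replicate 1, where the remaining B6J libraries hold 0 footprints, and the lowest without B6J replicate 3. Pmaip1 too reached the count minimum through its mutant libraries. Neither Hrk nor Pmaip1 passed the footprint test.

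The third B6J.Gtpbp1-/- footprint library also stood apart in base composition. Among the tenth of well-covered genes with the highest GC content of the coding sequence, its median log2 difference from the other libraries of the genotype was 0.56, whereas it lay between −0.39 and 0.20 in the other 8 footprint libraries. The coding sequence of Hrk has 83.0% GC, above 100% of the 10703 genes compared, and that of Bbc3 has 72.2%, above 99.8% of them. Mcl1, at 64.7%, was above 97.5%, and the other members were between 53.5% and 61.0%. The part of base composition in the footprint values of Hrk and Bbc3 was not tested.

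**Figure D4:**
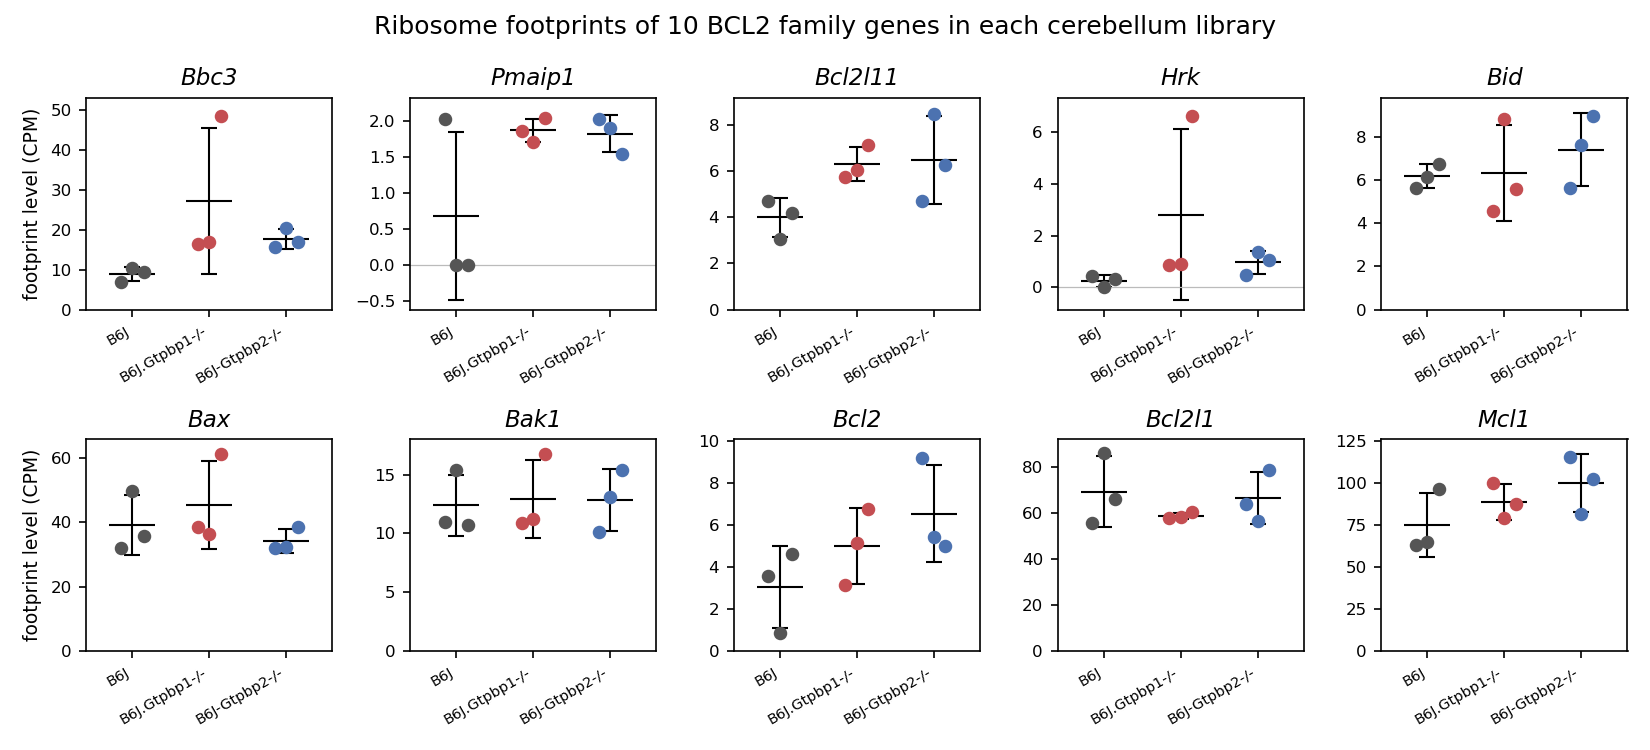
Footprint level (CPM, y axis) of each of the 10 genes in the 3 libraries of each genotype (points), with the mean and SD (bars); axes start at 0, except for Pmaip1 and Hrk, where a bar of 1 SD reaches below 0 (grey line). Bbc3 is higher in every mutant library than in B6J, and Hrk reaches 6.61 CPM in a single B6J.Gtpbp1-/- library.

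The remaining members had footprint changes that did not pass. Bcl2l11 had 21, 14 and 26 footprints in B6J, 40, 53 and 42 in the libraries of B6J.Gtpbp1-/- mice and 30, 31 and 65 in those of B6J-Gtpbp2-/- mice, with log2 fold changes of 0.66 ± 0.36 and 0.67 ± 0.40 (SE; adjusted p = 0.484 and 0.417). Bcl2 had 16, 4 and 29 footprints in B6J, 22, 45 and 40 in the libraries of B6J.Gtpbp1-/- mice and 59, 20 and 52 in those of B6J-Gtpbp2-/- mice, with log2 fold changes of 0.69 ± 0.53 and 1.08 ± 0.51 (adjusted p = 0.646 and 0.292). These Bcl2 values were 0.28 and 0.66 without B6J replicate 2 and 1.16 and 1.56 without B6J replicate 3. Bid, Bax, Bak1 and Bcl2l1 had log2 fold changes between −0.23 and 0.27 in both comparisons. Mcl1 was at 79.1 to 100.4 CPM in B6J.Gtpbp1-/-, 81.7 to 116 CPM in B6J-Gtpbp2-/- and 63.4 to 96.8 CPM in B6J mice, with log2 fold changes of 0.25 ± 0.21 (adjusted p = 0.686) and 0.42 ± 0.20 (adjusted p = 0.292). With sex as a covariate the Mcl1 value in B6J-Gtpbp2-/- mice was 0.06, and without B6J replicate 3 the values were 0.47 and 0.65. Between the mutants, 0 of 10 members were called in footprints by edgeR or DESeq2, 0 had an unadjusted p under 0.05 (10.8% of all genes did), and 0.0% of 14142 genes were called by edgeR and 0.643% by DESeq2.

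Translational efficiency (TE), the ratio of footprints to RNA, was tested as the interaction of assay and genotype in a single model. In B6J.Gtpbp1-/- mice 0 of the 9 members tested were called (0.0% of 13086 genes), and 1 had an unadjusted p under 0.05, against 8.94%. In B6J-Gtpbp2-/- mice 0 of 8 were called (0.00773% of 12931 genes), and 1 had an unadjusted p under 0.05, against 12%. DESeq2 called 0 in both, against 0.443% and 1.24% of all genes. Between the mutants 0 of 9 were called by either tool (0.0% of 13292 genes with edgeR and 1.18% with DESeq2), and 0 had an unadjusted p under 0.05, against 11.2%. The member with an unadjusted p under 0.05 was Mcl1 in both, with a log2 change of TE of 0.48 (95% CI 0.01 to 0.94; adjusted p = 0.547) and 0.48 (0.02 to 0.94; adjusted p = 0.392). TE of Bbc3 differed by 0.18 (95% CI −0.85 to 1.22; adjusted p = 0.940) and −0.35 (−1.01 to 0.30; adjusted p = 0.682). Without the third B6J.Gtpbp1-/- footprint library the first of these values was −0.54. Hrk was not tested in either mutant, and Pmaip1 was tested in B6J.Gtpbp1-/- mice only, with −0.60 (95% CI −2.72 to 1.51). Pmaip1 met the count minimum for TE, at least 10 counts in 3 libraries of each assay, only through the footprint libraries of these mice. Its place among the 9 members tested rests on that, and its TE value is a description. The intervals of the BH3-only genes were wide, and a p that misses the threshold does not show an equal TE.

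AGA codons, which the tRNA affected by the B6J allele decodes, are unevenly spread over the family. The main coding transcript of Hrk has 0 AGA codons among 17 arginine codons, and that of Bbc3 has 2 among 21 and of Pmaip1 1 among 11. Bcl2l11, Bid, Bak1 and Mcl1 have 5 each, among 21, 11, 13 and 27 arginine codons, Bcl2l1 has 2 among 15, Bax 1 among 11 and Bcl2 1 among 19. As a share of all codons this is 1.04% for Bbc3, 0.971% for Pmaip1 and 2.56% for Bid, beside a median of 1.03% over 14073 expressed genes, of which 8.51% have none. The counts tell where the codon occurs and hold no position of a ribosome.

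Promoters of the family were searched because 3 members rose together. RefSeq (GRCm38.p6) gave 14 promoters for 9 of the 10 genes and none for Pmaip1, 1 of these 3, which was therefore not searched. The promoters each ran from 250 bases before to 50 bases after a start of transcription, and 2 of the 3 Bbc3 windows overlap. They were searched on both strands for TGATGNAA (bound by ATF4 with its partners), TGACTCA (AP-1) and GTAAACA (FOXO). The ATF4 motif occurred in 1 of the 14, against 3.97% of 32851 promoters, the AP-1 motif in 0 (5.2%) and the FOXO motif in 2 (3.65%). The ATF4 match is in the promoter of Hrk, 114 bases before the start, and the FOXO matches are in promoters of Bcl2l11 and of Bbc3, 227 and 167 bases before the start. The promoters of Hrk, at chr5:118169514-118169813 on the plus strand, and of Bbc3, at chr7:16310011-16310310 on the plus strand (1 of its 3), are shown with the match in capitals. A match describes letters in this window and not a site of binding.
Hrk: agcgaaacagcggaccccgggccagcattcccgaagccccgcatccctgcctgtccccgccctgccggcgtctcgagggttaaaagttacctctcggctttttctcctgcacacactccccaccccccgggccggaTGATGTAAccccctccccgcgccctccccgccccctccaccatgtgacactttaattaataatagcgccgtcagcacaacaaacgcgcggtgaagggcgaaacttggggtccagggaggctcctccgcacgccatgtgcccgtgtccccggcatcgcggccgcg
Bbc3: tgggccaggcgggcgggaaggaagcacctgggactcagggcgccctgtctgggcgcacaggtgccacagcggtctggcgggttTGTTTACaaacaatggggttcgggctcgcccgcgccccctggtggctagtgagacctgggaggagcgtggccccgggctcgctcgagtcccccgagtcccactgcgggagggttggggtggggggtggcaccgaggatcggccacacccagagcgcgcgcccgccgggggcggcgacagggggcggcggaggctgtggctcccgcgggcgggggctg
The Bbc3 match, TGTTTAC, is the FOXO motif read on the opposite strand.

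Across the 9 RNA libraries, the genes whose log2 CPM followed the 3 risen members most closely were named from 16280 genes with a mean of at least 1 CPM. For Hrk they were H2afz (Pearson's r = 0.995), Arhgef2 (0.994) and Gm29106 (0.993), and for Pmaip1 they were Slc1a4, a neutral amino acid transporter (0.999), Cyb5r1 (0.999) and Stc2 (0.998). For Bbc3 they were Arrdc4 (0.979), H2afz (0.978) and Armc5 (0.977). Within the family, Hrk followed Pmaip1 with r = 0.985 and Bbc3 with r = 0.959. The 9 libraries fall into mutants and controls, so any gene with a clear difference between them reaches a high r, and these values are a description.

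The genes that are known to act on the family were described from lists, whose counts stand beside the 5.9% of all genes that were higher and 7.93% lower in RNA with Gtpbp1 lost, and the 3.61% higher and 5.02% lower with Gtpbp2 lost. In the arm of the integrated stress response that runs through ATF4 and CHOP, 7 of 8 genes were higher in RNA in both mutants and 0 were lower, with a median log2 fold change of 1.57 and 1.55, beside 0.03 for all genes. Trib3, a pseudokinase induced by CHOP, rose by 5.20 ± 0.26 and 4.96 ± 0.26 on the log2 scale, Atf3 by 3.14 ± 0.53 and 3.06 ± 0.60, and Chac1, which breaks down glutathione, by 2.99 ± 0.13 and 2.93 ± 0.14 (SE; B6J.Gtpbp1-/- first). The eighth gene, the death receptor gene Tnfrsf10b, did not pass in either mutant. Footprints of 4 of 8 and 5 of 8 of these genes were higher too, where 0.745% and 2.94% of all genes were called. Among the latter 5, Trib3 was at 0.160 to 2.19 CPM in B6J mice. It reached the count minimum through its mutant libraries, so its footprint call is a description. Of p53 and 11 of its targets, 4 rose and 1 fell with loss of Gtpbp1, and 3 rose and 1 fell with loss of Gtpbp2, and the median log2 fold changes were 0.11 and 0.20. Trp53 itself rose by 0.89 ± 0.11 and 0.73 ± 0.12, Cdkn1a, the cell cycle inhibitor p21, by 1.87 ± 0.17 and 1.69 ± 0.19, and Eda2r by 1.56 ± 0.32 and 1.81 ± 0.36. Sesn1, another target, fell by 0.56 ± 0.07 and 0.42 ± 0.09 on the same scale. In footprints, 0 of the 11 genes of this list that were tested passed with loss of Gtpbp1. With loss of Gtpbp2, 1 of 10 passed, Cdkn1a (1.94 ± 0.30; adjusted p = 0.00877). Eda2r footprints were at −0.21 ± 0.85 in B6J.Gtpbp1-/- mice (adjusted p = 0.951).

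In the list of JNK, JUN and FOXO genes, 0 rose and 5 of 10 fell with loss of Gtpbp1, and 0 rose and 3 of 10 fell with loss of Gtpbp2. Jun fell by 0.87 ± 0.15 and 0.86 ± 0.19 on the log2 scale, Map3k12, which encodes the neuronal kinase DLK, by 0.45 ± 0.07 and 0.47 ± 0.07, and Mapk10, which encodes the neuronal kinase JNK3, by 0.34 ± 0.07 and 0.31 ± 0.08 (SE). These 3 genes passed in both mutants, while the sum of the granule neuron markers was lower as well. Of the genes that control turnover of MCL1 and BH3-only proteins, 1 of 6 was higher and 1 lower in both mutants. Trim17, a ubiquitin ligase known to target MCL1 in neurons, went from 7.12 ± 0.564 CPM in B6J to 27.2 ± 2.79 and 18.7 ± 7.20 CPM (SD, n = 3), a log2 fold change of 1.93 ± 0.13 and 1.38 ± 0.27 (SE; adjusted p = 5.86e-07 and 0.0160). Fbxw7, another ligase of MCL1, fell by 0.53 ± 0.08 and 0.55 ± 0.09 on the log2 scale (adjusted p = 5.79e-04 and 0.00393).

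Downstream of the family and in its other branches, the counts of called genes in RNA stand beside 13.8% and 8.63% of all genes called with Gtpbp1 and Gtpbp2 lost. Of 16 genes of the apoptosome, caspases and their inhibitors, 0 passed in RNA in B6J.Gtpbp1-/- mice and 1 was lower in B6J-Gtpbp2-/- mice, Aifm1 (log2 fold change −0.51 ± 0.13, SE; adjusted p = 0.0313), whose value in B6J.Gtpbp1-/- mice was −0.38 ± 0.12 (adjusted p = 0.0564). The median of the list was 0.00 and −0.02. In footprints 1 of the 16, Casp8, was higher in B6J-Gtpbp2-/- mice (2.03 ± 0.51; adjusted p = 0.0461), where 2.94% of all genes were called, and 0 in B6J.Gtpbp1-/- mice, where Casp8 was at 1.90 ± 0.52 (adjusted p = 0.120). Casp8 footprints were few, at 0.674 to 2.89 CPM in B6J and 6.24 to 7.63 CPM in B6J-Gtpbp2-/- mice. Casp8 RNA did not pass, with 0.65 ± 0.29 for Gtpbp1 loss (adjusted p = 0.171) and 0.42 ± 0.27 for Gtpbp2 loss (adjusted p = 0.409). Of 8 death receptor genes, 1 was higher in B6J.Gtpbp1-/- mice, Tnfrsf1a (0.52 ± 0.14; adjusted p = 0.0267), and 0 in B6J-Gtpbp2-/- mice, where Tnfrsf1a was at 0.50 ± 0.18 (adjusted p = 0.114). Among 14 further members of the BCL2 family, 10 were tested for loss of Gtpbp1 and 11 for loss of Gtpbp2, and 1 was higher in the former and 0 in the latter. The median log2 fold change of the tested ones was −0.21 and −0.14, beside 0.03 for all genes. Bad, which encodes a BH3-only protein, was at −0.37 ± 0.12 and −0.35 ± 0.11 (SE; adjusted p = 0.0687 and 0.0804), and the pro-survival gene Bcl2l2 at −0.20 ± 0.07 and −0.21 ± 0.07 (adjusted p = 0.0708 and 0.0889). Bnip3 and Bnip3l, which act in mitophagy, were at −0.26 ± 0.09 and −0.21 ± 0.07 with Gtpbp1 lost (adjusted p = 0.0793 and 0.0605). The gene that passed was Bcl2a1b, which is expressed by white blood cells, at 1.00 ± 0.228 CPM against 0.198 ± 0.186 CPM in B6J (SD, n = 3; log2 fold change 2.33 ± 0.65, SE; adjusted p = 0.0314). With Gtpbp2 lost, Bcl2a1b was at 1.03 ± 0.386 CPM (2.37 ± 0.68; adjusted p = 0.0529). Bcl2a1b shares nearly all of its sequence with Bcl2a1a and Bcl2a1d, so its counts are uncertain, and the summed microglial markers were higher in the same libraries.

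**Figure D5:**
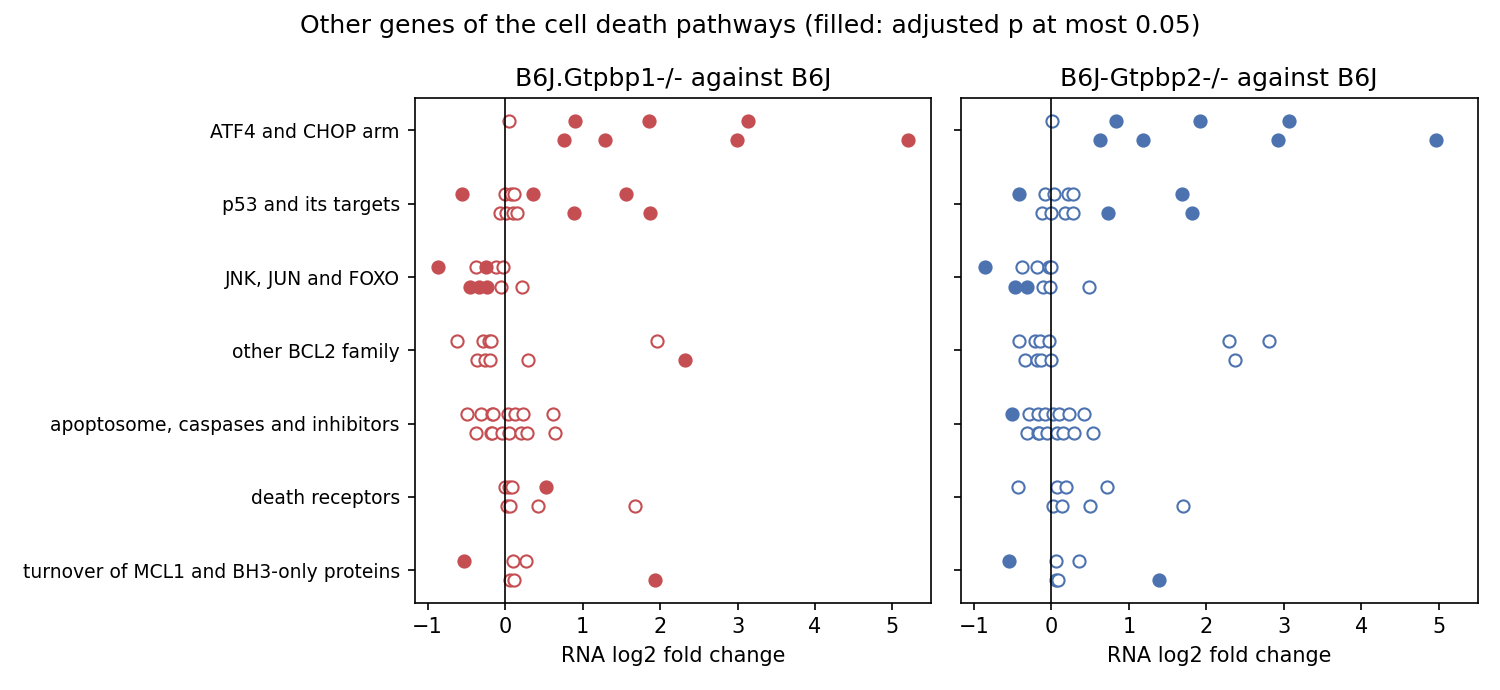
RNA log2 fold change over B6J (x axis) of each tested gene of 7 lists (rows) in B6J.Gtpbp1-/- (left) and B6J-Gtpbp2-/- mice (right); filled points passed an adjusted p of 0.05 and the height within a row has no meaning. The ATF4 and CHOP row reaches 5.20 and 4.96, with 7 of 8 genes filled in both mutants, whereas the row of the apoptosome and caspases holds 0 and 1 filled points.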

How the data were processed

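RNA and ribosome footprints of mouse cerebellum were measured in 3 libraries per genotype and assay. For RNA, the authors deposited estimated counts, TPM and effective lengths per transcript, made with kallisto (version 0.42.4 per the submitters' processing notes) on Gencode M20. For footprints they deposited whole-number counts per gene over coding sequence, counted with featureCounts after removal of ribosomal RNA reads with Bowtie2 2.2.3 and mapping with HISAT2 2.1.0. Estimated counts were summed per gene and rounded. CPM were scaled with TMM factors. Genes with at least 5 counts in 3 of the 6 libraries were tested with edgeR 4.0.16 (quasi-likelihood, R 4.3.3), with Benjamini-Hochberg adjustment over all genes tested and a threshold of 0.05. TE was the interaction in 1 edgeR model over 12 libraries (at least 10 counts in 3 libraries of each assay). DESeq2 1.42.0, upper-quartile scaling, no filter, all 9 libraries, a replicate block, sex, effective length, protein-coding transcripts and leaving out each library were the alternatives, with TMM within each assay and a lower count minimum for TE. The code was tested on simulated data. Tables were joined with Python 3.11.15 and pandas 2.3.3.

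All 10 genes are named. From each list of related genes, up to 3 genes with the highest and up to 3 with the lowest fold change past the threshold are named, and genes that stand outside this rule were chosen after their values were seen. The members and lists were chosen with earlier results of these data known. Per the study's methods, each genotype had 3 mice for RNA, and each footprint library came from 1 cerebellum. The limits that a count of 0 allows cover counting error only, whereas the 95% intervals of log2 fold changes come from edgeR's fit and hold the spread between libraries. Same-numbered libraries did not vary together (correlations of −0.14 to 0.20 in RNA and −0.35 to 0.18 in footprints).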

Additional observations from a re-analysis of the deposited data

How the results depend on the processing

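Bbc3, Pmaip1 and Hrk were called in RNA in both mutants under each of the 14 alternatives. Members called in footprints went from 0 to 1 (Bbc3) with DESeq2 in both mutants. With a replicate block, the Bcl2l1 RNA value in B6J.Gtpbp1-/- mice was −0.28 (adjusted p = 0.0766), and the libraries were not paired by number. Upper-quartile scaling moved the share of RNA calls that were higher from 42.6% to 54.9% in B6J.Gtpbp1-/- and from 41.8% to 53.3% in B6J-Gtpbp2-/- mice. Over all genes, DESeq2 called more than edgeR: in footprints 252 higher and 158 lower against 80 and 24 in B6J.Gtpbp1-/- mice and 290 and 344 against 176 and 230 in B6J-Gtpbp2-/- mice, in RNA of the latter 1489 and 1904 against 898 and 1248, and for TE 32 and 26 against 0 and 0 and 69 and 91 against 0 and 1.

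The values that changed sign did not pass the test in their own comparison, and the cause was not tested. In RNA, Bak1 was 0.033 with upper-quartile scaling and 0.29 with effective lengths in B6J.Gtpbp1-/- mice, and 0.041 with upper-quartile scaling and 0.0029 with no filter in B6J-Gtpbp2-/- mice. In footprints, Bid was −0.0025 with a replicate block and −0.11 with sex as a covariate in B6J.Gtpbp1-/- mice, and Bcl2l1 was 0.024 with sex as a covariate in B6J-Gtpbp2-/- mice. Leaving out 1 library at a time, RNA values of Bak1 ran from −0.097 to 0.059 in B6J.Gtpbp1-/- and from −0.096 to 0.080 in B6J-Gtpbp2-/- mice. Footprint values in B6J.Gtpbp1-/- mice ran from −0.26 to 0.23 for Bid, −0.047 to 0.43 for Bax and −0.15 to 0.26 for Bak1. In B6J-Gtpbp2-/- mice they ran from −0.31 to 0.028 for Bax, −0.093 to 0.26 for Bak1 and −0.19 to 0.14 for Bcl2l1.

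TE changed sign when a footprint library was left out, in B6J.Gtpbp1-/- mice for Bbc3 (−0.54) and Bak1 (−0.16) without B6J.Gtpbp1-/- replicate 3, for Pmaip1 (6.48), Bak1 (−0.020) and Bcl2l1 (−0.12) without B6J replicate 1, for Bcl2 (−0.075) without B6J replicate 2, and for Bak1 (−0.047) and Bcl2l1 (−0.025) without B6J replicate 3. In B6J-Gtpbp2-/- mice it did so for Bak1 (−0.15) and Bcl2l1 (−0.047) without B6J-Gtpbp2-/- replicate 3, for Bak1 (−0.045) and Bcl2l1 (−0.037) without B6J replicate 1, for Bax (0.089) without B6J replicate 2 and for Bak1 (−0.064) without B6J replicate 3. Without the RNA library of B6J replicate 1, Bak1 was −0.0074. Without B6J replicate 1 the other B6J libraries hold 0 footprints of Pmaip1, so its fitted value there is no bound.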
